A study of Rattus norvegicus with 3 samples.

Results

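Voltage-gated sodium and calcium channel genes and the potassium channel genes were examined in axon-enriched RNA from rat spinal cord, taken from the supernatant left after digestion with a cold-active protease and removal of the cells by centrifugation. The members were chosen by symbol alone, as every gene whose symbol begins with SCN and a digit, with CACNA, CACNB or CACNG, or with KCN. They numbered 60 of the 12758 genes in the table, with 4 sodium, 9 calcium and 47 potassium channel genes. All tissue came from female Sprague Dawley rats of 3 months, which all had a laminectomy at T9. The No-SCI animals had the laminectomy only and the SCI animals also received a contusion of 250 kdyne. After 24 h the cord segment next to the lesion on its rostral side was collected, so the values describe acute injury beside the lesion and not within it. By its labels the series holds 2 libraries of No-SCI and 1 of SCI, while the methods of the study give 2 animals per condition.

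The deposited table gives 1 FPKM value per gene and group, where FPKM counts sequenced fragments relative to transcript length and to the size of the library. These are the authors' group values, without a value for a single library, without read counts and with an unknown depth behind each gene. No SD, n or test between animals can be given, and each comparison states the level in both groups and the log2 of SCI over No-SCI (the log2 ratio), with no pseudocount. A gene is called lower or higher where its level was so at any size, and a difference of at least 2-fold is named as such, and neither is a test. Of all genes listed, 12.1% were at least 2-fold lower and 7.93% at least 2-fold higher after SCI, and the median log2 ratio of all genes was −0.12. Of the markers of cord cell types, 9 of 10 oligodendrocyte, 8 of 10 neuron, 5 of 10 astrocyte and 10 of 10 microglia markers were listed, against 56.4% of all named protein-coding genes. Markers of other tissue were listed as well, with 12 of 15 of skeletal muscle and 8 of 8 of meningeal fibroblasts, so an entry alone does not identify the tissue. GFAP, AQP4, MBP, SNAP25 and NEFM were among the markers without an entry.

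As background, voltage-gated channels open in response to a change of membrane potential. Sodium channels carry the upstroke of the action potential and are clustered at the axon initial segment and the nodes of Ranvier, with Kv1 potassium channels under the myelin beside the nodes. Calcium channels at nerve terminals admit the calcium that triggers transmitter release, and calcium entry is a known step in the degeneration of injured axons. Potassium channels bring the membrane back to rest, and in astrocytes inward rectifiers take up the potassium released by active axons. Each channel has a pore made of large subunits and is tuned by smaller auxiliary subunits.

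The list of members held no pore subunit of a voltage-gated sodium or calcium channel. None of the 10 sodium channel alpha genes and none of the 10 calcium channel alpha1 genes had an entry, whereas genes of the sodium channel beta subunits and all 4 calcium channel beta genes did. Of 135 protein-coding rat genes of these names in RefSeq (GRCr8), 60 had an entry, which is 44.4%, against 56.4% of 20972 named protein-coding genes. The 75 others also include KCNQ3, a subunit of the M-current channel, KCNJ10, the main inward rectifier of astrocytes, KCNMA1, the pore of the BK channel, and CACNA2D1. Whether these genes were undetected or removed cannot be told from the table, so the sodium and calcium families are described here by their auxiliary subunits.

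The listed channel genes were mostly of modest level. Their median was 6.17 FPKM in No-SCI and 4.63 after SCI, compared with 17.2 and 15.6 FPKM for all genes, and 7 members were above 20 FPKM in No-SCI. The highest was KCNN4, followed by KCNJ16, KCNIP2, KCNC2, KCNK1, KCNG4 and KCNE2. After SCI KCNN4 was again the highest. CACNB3 had moved from rank 20 to rank 2 among the 60 and KCNK2 from 49 to 7. In the other direction KCNG4 moved from rank 6 to 34, KCNE2 from 7 to 30 and KCNIP3 from 10 to 36.

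**Figure D1:**
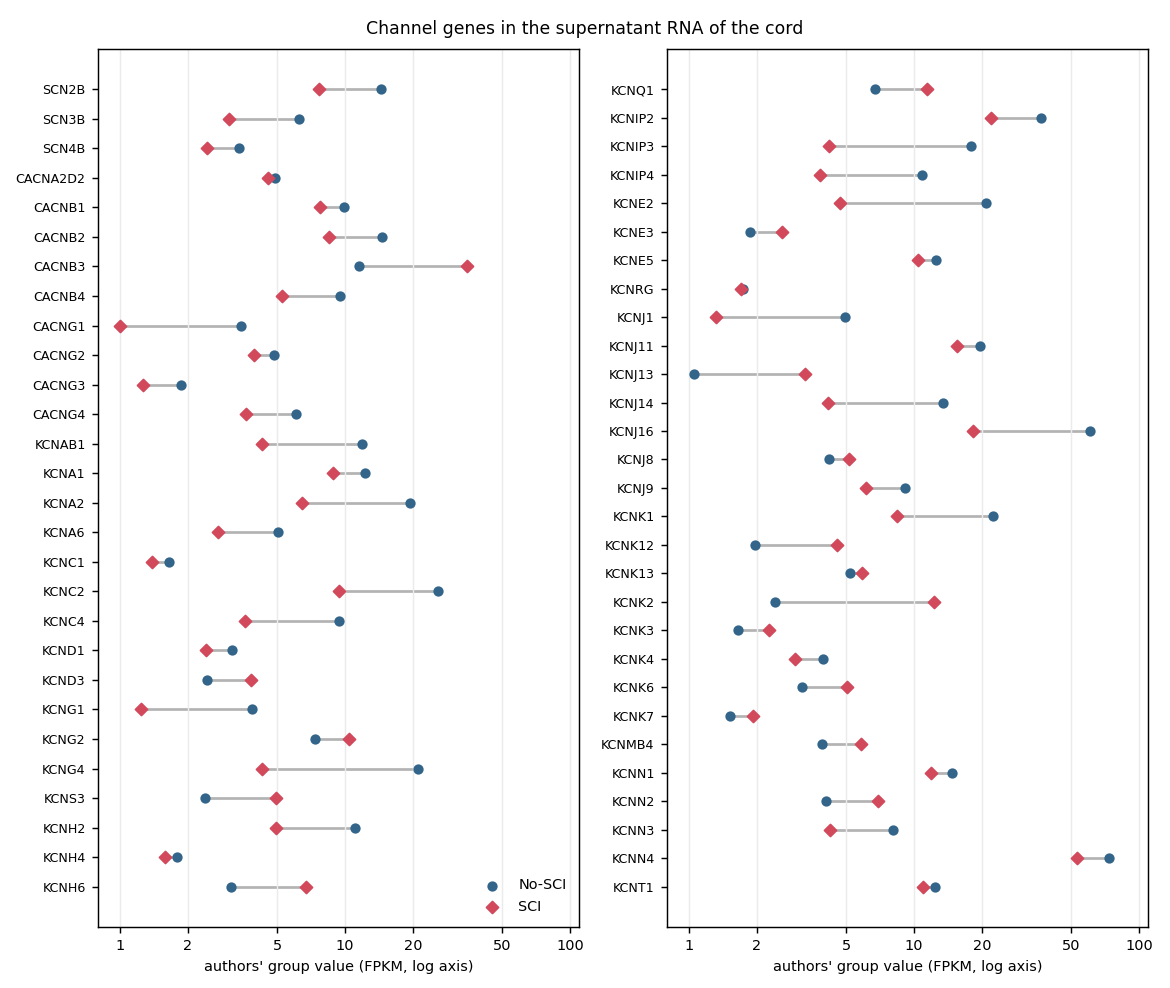
Level of the channel genes reported singly in No-SCI (circles) and SCI (diamonds), as the authors' group value in FPKM on a log axis, in order of family and subfamily. No replicate values exist, so no error bars are drawn, and the line of KCNK2 runs from 2.41 to 12.2 FPKM and that of KCNG4 from 21.2 to 4.28 FPKM.

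After SCI 42 of the 60 members were lower (70%, against 56.4% of all genes) and 18 higher. At least 2-fold lower were 16 (26.7%, against 12.1% of all genes), and at least 2-fold higher were 6 (10%, against 7.93%). The median log2 ratio of the members was −0.37, and 40 of the 60 lay below the median of all genes. Among the 10235 genes whose No-SCI level was within the range of the members, the median was −0.12 and 12.1% were at least 2-fold lower. This range takes in most of the 12758 genes. Their median No-SCI level was 11.6 FPKM, against 6.17 for the members, so they are not matched to the members in level. The 32 members with a mean of at least 5 FPKM had a median of −0.76 and 12 of them were at least 2-fold lower, while the 28 below that level had a median of −0.16 with 4 lower and 4 higher by 2-fold. Auxiliary subunits had a median of −0.65 (22 genes, 6 at least 2-fold lower and 1 higher) and pore subunits, all of them potassium channels, a median of −0.29 (38 genes, 10 lower and 5 higher).

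**Figure D2:**
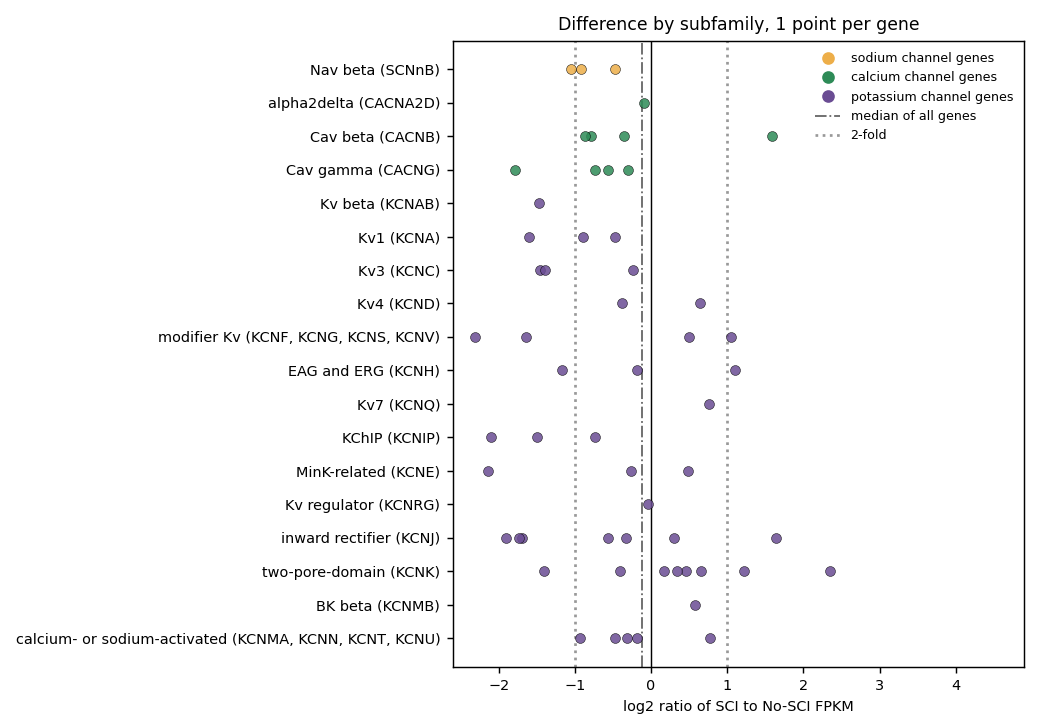
Log2 ratio of SCI to No-SCI FPKM for the channel genes reported singly, 1 point per gene, by subfamily. The dash-dotted line marks the median of all genes (−0.12) and the dotted lines a 2-fold difference, with all listed Kv1, KChIP and Cav gamma genes to the left of 0 and 6 of 8 two-pore-domain genes to its right.

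The sodium channel beta subunits are single-pass membrane proteins with an immunoglobulin domain, which adjust the gating of the pore and act in cell adhesion. SCN2B, which is linked to the pore by a disulfide bond, went from 14.5 to 7.69 FPKM (log2 ratio −0.92). SCN3B, which binds the pore without a covalent bond, went from 6.27 to 3.04 FPKM (log2 ratio −1.05), and SCN4B, the other disulfide-linked subunit, from 3.37 to 2.43 FPKM (log2 ratio −0.47). The median log2 ratio over the sodium channel genes of the table was −0.69.

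The calcium channel beta subunits are cytoplasmic proteins that bring the pore to the membrane. CACNB3 was the one member of the calcium family above 2-fold in the upward direction, going from 11.6 to 34.9 FPKM (log2 ratio 1.59, or 3.01-fold). The other 3 were lower. CACNB2 went from 14.6 to 8.45 FPKM (log2 ratio −0.79), CACNB4 from 9.51 to 5.22 FPKM (log2 ratio −0.87), and CACNB1, the main form of skeletal muscle that is also made in brain, from 9.91 to 7.73 FPKM (log2 ratio −0.36). In No-SCI the 4 genes lay within a narrow range of 9.51 to 14.6 FPKM. CACNB3 made up 25.4% of their sum in No-SCI and 62.0% after SCI. In GRCr8 CACNB3 overlaps TUBA1C, a tubulin gene listed at 454 FPKM in No-SCI and 539 after SCI, and CACNB1 overlaps RPL19, a ribosomal protein gene at 2170 and 3100 FPKM. Whether the authors' counting used the strand is not given in the sources used here, so reads of an overlapping gene in these values were not tested.

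The other calcium channel members were the gamma subunits and 1 alpha2delta subunit. CACNA2D2, a target of gabapentin, was nearly level, with 4.89 FPKM without and 4.56 FPKM with injury (log2 ratio −0.10), a sign that turns, to 0.02, when the median of all genes is centred at 0. CACNG2, known as stargazin, CACNG3 and CACNG4 are auxiliary proteins of AMPA-type glutamate receptors more than of calcium channels. Their levels went from 4.85 to 3.94, from 1.86 to 1.26 and from 6.07 to 3.65 FPKM, with log2 ratios of −0.30, −0.57 and −0.74. CACNG1, the gamma subunit of the skeletal muscle channel, went from 3.46 FPKM to 1, the lowest value in the table, so its log2 ratio of −1.79 depends on that lowest value. CACNG1 and CACNG4, which are next to each other among the protein-coding genes of GRCr8, were both lower. Skeletal muscle markers moved in the same direction, with 12 of 15 listed, all 12 lower after SCI and a summed level of 443 FPKM in No-SCI and 50.6 after SCI. Among them TNNT3 went from 180 to 14.1 FPKM and ACTA1 from 60.8 to 4.48 FPKM, and the part of muscle RNA in the value of CACNG1 was not tested. The channel genes CACNA1S, SCN4A, CACNG6 and KCNA7 of skeletal muscle had no entry.

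Delayed rectifier channels of the Kv1 and Kv3 subfamilies set the width and the rate of action potentials in axons, and the 6 genes of them given here were lower after SCI. KCNA2, a main subunit of the juxtaparanodal channel, went from 19.4 to 6.41 FPKM (log2 ratio −1.60, or 3.03-fold lower). KCNA1, which joins it in the same channel complexes, went from 12.3 to 8.81 FPKM (log2 ratio −0.48), and KCNA6 from 5.05 to 2.71 FPKM (log2 ratio −0.90). The order of the pair changed, with a ratio of KCNA1 to KCNA2 of 0.631 in No-SCI and 1.37 after SCI. KCNAB1, a cytoplasmic beta subunit that speeds the inactivation of Kv1 channels, went from 11.9 to 4.29 FPKM (log2 ratio −1.48), so that its ratio to KCNA2 moved little, with 1.63 FPKM of KCNA2 per FPKM of KCNAB1 in No-SCI and 1.5 after SCI. KCNA1 and KCNA6 are also next to each other in GRCr8.

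In the Kv3 subfamily, whose channels allow fast firing, the 2 more abundant genes were at least 2-fold lower. KCNC2 went from 25.8 to 9.38 FPKM (log2 ratio −1.46) and KCNC4 from 9.40 to 3.59 FPKM (log2 ratio −1.39). KCNC1, which went from 1.65 to 1.39 FPKM (log2 ratio −0.24), was near the lowest value of the table.

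The Kv4 channels carry the A-type current that delays firing, and KChIP proteins are their calcium-binding partners. All 3 KChIP genes with an entry were lower, with a median log2 ratio of −1.5. KCNIP3, also known as calsenilin or DREAM and as a calcium-dependent repressor of transcription, went from 17.9 to 4.18 FPKM (log2 ratio −2.10, or 4.28-fold lower). KCNIP4 went from 10.9 to 3.83 FPKM (log2 ratio −1.5), and KCNIP2, the most abundant of the 3, from 36.5 to 21.9 FPKM (log2 ratio −0.73). The pore genes did not move together, with KCND1 going from 3.13 to 2.41 FPKM (log2 ratio −0.38) and KCND3 from 2.43 to 3.81 FPKM (log2 ratio 0.65). DPP6, another known partner of Kv4 channels, went from 30.5 to 8.57 FPKM (log2 ratio −1.83).

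The silent subunits, which form no channel alone and join Kv2 channels, differed among themselves. KCNG4 had the largest difference of all members in the downward direction, from 21.2 to 4.28 FPKM (log2 ratio −2.31, or 4.94-fold lower). KCNG1 went from 3.88 to 1.24 FPKM (log2 ratio −1.64), ending close to the lowest value of the table. In the other direction KCNG2 went from 7.32 to 10.4 FPKM (log2 ratio 0.50) and KCNS3 from 2.38 to 4.92 FPKM (log2 ratio 1.05). The leading silent subunit was thus KCNG4 in No-SCI, with 60.9% of the sum of the 4, and KCNG2 after SCI, with 49.8%.

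Of the ERG and related channels KCNH2, the ERG channel best known from the heart, went from 11.1 to 4.96 FPKM (log2 ratio −1.17) and KCNH6, its neuronal relative, from 3.12 to 6.71 FPKM (log2 ratio 1.10). KCNH4 was at 1.79 FPKM in No-SCI and 1.58 after SCI (log2 ratio −0.18). The share of KCNH6 in the sum of the 3 was 19.5% in No-SCI and 50.7% after SCI. KCNQ1, the one listed Kv7 gene and one known from epithelia and heart rather than axons, went from 6.71 to 11.4 FPKM (log2 ratio 0.76).

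KCNE genes encode small single-pass partners of several Kv channels, and KCNE2 stood out among them. KCNE2, which is known from choroid plexus, stomach and heart, went from 20.8 to 4.69 FPKM (log2 ratio −2.15, or 4.43-fold lower). KCNE5 went from 12.5 to 10.4 FPKM (log2 ratio −0.27), and KCNE3 from 1.86 to 2.59 FPKM (log2 ratio 0.48). KCNRG, a soluble protein that suppresses Kv channel assembly, was at 1.74 FPKM in No-SCI and 1.69 after SCI, and its log2 ratio of −0.04 changes sign, to 0.08, with the median of all genes centred at 0.

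The inward rectifiers include the potassium uptake channel of glia. KCNJ16 forms a channel with KCNJ10 in astrocytes and was the second most abundant member in No-SCI, with 60.7 FPKM, and went to 18.3 FPKM after SCI (log2 ratio −1.73, or 3.31-fold lower). The astrocyte markers moved with it, with 5 of 10 listed, all 5 at least 2-fold lower, a median log2 ratio of −1.44 and a summed level of 189 FPKM in No-SCI and 69.8 after SCI. In such bulk RNA fewer cells or processes of a type and less of a transcript in each cannot be told apart. KCNJ14, a classical rectifier known from motor neurons of the brainstem, went from 13.5 to 4.15 FPKM (log2 ratio −1.70), and KCNJ1, known from kidney, from 4.91 to 1.32 FPKM (log2 ratio −1.90). The SCI value of KCNJ1 is close to the lowest value of the table. Its log2 ratio was −1.35 with a pseudocount of 1 and −3.63 with 1 subtracted.

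The remaining inward rectifiers differed less or in the other direction. KCNJ9, a subunit of the channels opened by G proteins, went from 9.08 to 6.13 FPKM (log2 ratio −0.57), and overlaps IGSF8, which went from 32.8 to 12.9 FPKM. KCNJ11, the pore of the ATP-sensitive channel of neurons, went from 19.5 to 15.5 FPKM (log2 ratio −0.34), and KCNJ8, the form of pericytes, from 4.16 to 5.14 FPKM (log2 ratio 0.30). KCNJ13, known from choroid plexus and retinal epithelium, went from 1.05 to 3.28 FPKM (log2 ratio 1.64), starting close to the lowest value of the table. KCNJ13 lies over the gene GIGYF2 in GRCr8, which has no entry.

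The two-pore-domain channels carry the resting potassium leak, and they were the subfamily with the most genes in the upward direction, 6 of 8, with a median log2 ratio of 0.40. Of all 12758 genes 5568 were higher. The 6 upward genes started from low levels, the highest of them being KCNK13 at 5.19 FPKM without injury. KCNK12, KCNK3 and KCNK7 started at 1.96, 1.65 and 1.52 FPKM, near the lowest value of the table. The sum over all 8 genes hardly differed between the groups, being 42.1 FPKM for No-SCI against 43.2 for SCI. KCNK2, the mechanosensitive channel TREK-1, went from 2.41 to 12.2 FPKM (log2 ratio 2.34, or 5.08-fold higher), which was the largest difference upward among the members, at percentile 99.0 of all genes. KCNK12 went from 1.96 to 4.55 FPKM (log2 ratio 1.21), and KCNK6, a leak channel known from macrophages, from 3.18 to 5.01 FPKM (log2 ratio 0.66). In GRCr8 KCNK2 and KCNK6 each overlap another protein-coding gene that has no entry, and reads of these genes in the values were not tested. KCNK1, the weak rectifier TWIK-1 of astrocytes and neurons, went the other way, from 22.3 to 8.42 FPKM (log2 ratio −1.41).

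KCNK2 and KCNK4 are both known from the nodes of Ranvier of myelinated fibres, and they did not move together. KCNK4, the channel TRAAK, went from 3.92 to 2.95 FPKM (log2 ratio −0.41), and the ratio of KCNK2 to KCNK4 was 0.614 in No-SCI and 4.14 after SCI. KCNK13, a leak channel of microglia, KCNK3 and KCNK7 were at 5.19, 1.65 and 1.52 FPKM in No-SCI and at 5.85, 2.27 and 1.91 FPKM after SCI, with log2 ratios of 0.17, 0.46 and 0.34. Of the sum of the 8 genes KCNK1 made up 53.0% and KCNK2 5.71% in No-SCI, against 19.5% and 28.3% after SCI. Meningeal fibroblast markers were higher in the SCI group, all 8 of 8 by more than 2-fold, with a summed level of 52.1 FPKM in No-SCI and 812 after SCI, and their part in the values of KCNK2, KCNJ13 and CACNB3 was not tested.

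**Figure D3:**
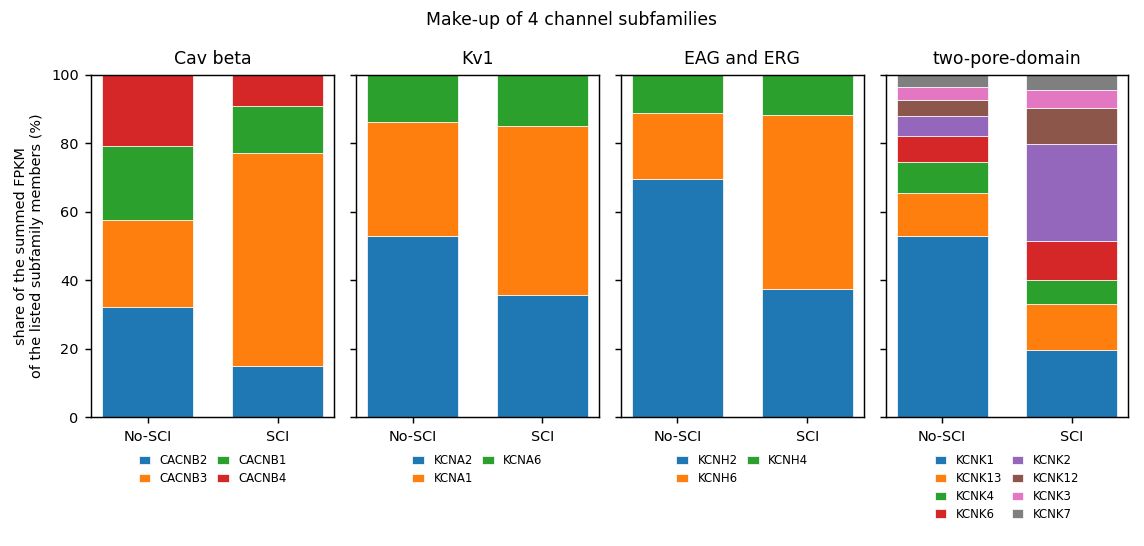
Share of each gene in the summed FPKM of the listed members of 4 subfamilies, in No-SCI and SCI. CACNB3 goes from 25.4% to 62.0%, KCNA2 from 52.9% to 35.8%, KCNH6 from 19.5% to 50.7% and KCNK2 from 5.71% to 28.3%.

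Channels opened by calcium or sodium inside the cell had no member past 2-fold. KCNN4, the intermediate-conductance channel of microglia, lymphocytes and red blood cells, was the most abundant channel gene in both groups, going from 73.8 to 53.0 FPKM (log2 ratio −0.48). The small-conductance channels, which follow the action potential with a slow hyperpolarisation, were KCNN1 with 14.7 and 11.9 FPKM (log2 ratio −0.31), KCNN2 with 4.04 and 6.93 FPKM (log2 ratio 0.78) and KCNN3 with 8.02 and 4.21 FPKM (log2 ratio −0.93). KCNN2 and KCNN3 changed order, with a ratio of 0.504 in No-SCI and 1.64 after SCI. KCNT1, a sodium-activated channel, was at 12.3 and 10.9 FPKM (log2 ratio −0.18), and KCNMB4, the neuronal beta subunit of the BK channel, at 3.88 and 5.80 FPKM (log2 ratio 0.58).

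Across cell types the channel genes can be read by lists drawn from textbook knowledge. Beside the counts that follow, 56.4% of all genes were lower, 12.1% at least 2-fold lower and 7.93% at least 2-fold higher. Of 18 channel genes of the node and juxtaparanode 11 were listed, and 9 of them were lower, 3 by at least 2-fold (KCNA2, KCNAB1 and SCN3B), while KCNK2 was higher by at least 2-fold. With so few genes these counts are described only. The neuron markers had a median log2 ratio of −0.97, with 7 of 8 lower and 4 by at least 2-fold, and the oligodendrocyte markers one of −1.64, with all 9 lower. The summed level of the neuron markers was 1769 FPKM in No-SCI and 1644 after SCI, of which GAP43 alone went from 1275 to 1406 FPKM. That of the oligodendrocyte markers was 52361 and 29970 FPKM, of which MOBP alone made up 44200 and 27648 FPKM. MOBP was under 2-fold (log2 ratio −0.68), whereas 8 of the 9 oligodendrocyte markers were at least 2-fold lower. Both glial genes listed, KCNJ16 and KCNK1, were at least 2-fold lower. The 4 listed genes of microglia and immune cells had a median of 0.33, with KCNN4 lower and KCNK13, KCNK6 and KCNE3 higher, all under 2-fold, and 7 of 10 microglia markers were lower with a median of −0.17. The summed level of the microglia markers was 765 FPKM in No-SCI and 746 after SCI. KCNJ8 was the one channel of the vessel wall listed. The 8 listed mural and endothelial markers had a median of 0.31, with 5 higher and 3 lower, RGS5 and MYH11 among the latter. Their sums were 442 and 573 FPKM, of which TAGLN alone made up 383 and 517 FPKM. The presynaptic genes listed were CACNB4 and CACNA2D2. Of the oligodendrocyte precursor markers 5 of 6 were listed, 4 of them lower, with a median of −0.28.

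The channel partners are genes whose proteins bind, anchor or regulate these channels, together with other channels of the axon. Of 40 such genes 28 were listed, 23 lower and 5 higher, with 11 at least 2-fold lower (39.3%, against 12.1% of all genes) and none at least 2-fold higher, and the median log2 ratio was −0.87. ANK2 and ANK3, the ankyrins that anchor channels to the axonal cytoskeleton, went from 820 to 95.2 FPKM (log2 ratio −3.11) and from 110 to 43.9 FPKM (log2 ratio −1.33). Genes of adhesion proteins of the paranode and juxtaparanode were lower by differing amounts, with CNTN1 going from 202 to 48.3 FPKM (log2 ratio −2.06), CNTNAP1 from 20.8 to 6.68 FPKM (log2 ratio −1.63) and CNTN2, the partner of Kv1 channels, from 11.9 to 3.0 FPKM (log2 ratio −1.99). CNTNAP2, which joins CNTN2 at the juxtaparanode, went from 6.71 to 4.68 FPKM (log2 ratio −0.52), under 2-fold. NRCAM, a nodal adhesion protein and the most abundant partner, went from 894 to 466 FPKM (log2 ratio −0.94). The other partners past 2-fold were LGI1 and LGI3, secreted ligands linked to Kv1 channels, DLG2, the scaffold PSD-93, DPP6, STAC2 and AKAP6, with log2 ratios from −1.18 for AKAP6 to −2.29 for LGI3. HCN2 and HCN4, pacemaker channels that belong to none of the 3 families, were at 5.73 and 1.26 FPKM in No-SCI and at 4.77 and 2.04 FPKM after SCI.

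**Figure D4:**
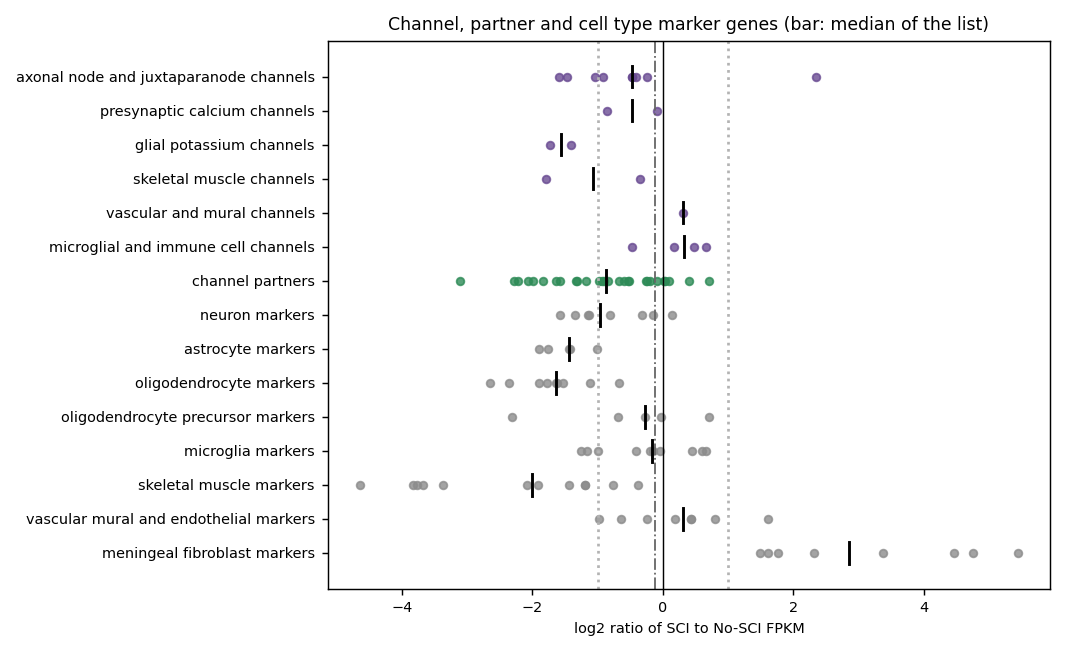
Log2 ratio of SCI to No-SCI FPKM for the listed genes of 6 channel lists, the channel partners and 8 sets of cell type markers, 1 point per gene reported here, with a bar at the median of each whole list, a dash-dotted line at the median of all genes and dotted lines at 2-fold. The channel partners (median −0.87) and neuron markers (−0.97) lie mostly left of 0, and the meningeal fibroblast markers (8 of 8 past 2-fold) right of it.

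Promoter sequence from RefSeq (GRCr8), 250 bases before to 50 bases after the start of a gene, was matched for 37 of the 60 members. The windows were searched on both strands for TTCAGCACC, the left part of the site of REST, a repressor of many neuronal channel genes outside neurons. They were searched likewise for TGANTCA, a widened form of the site of AP-1, a factor induced by injury. It allows any middle base, where the usual AP-1 site has G or C. They were also searched for GGACAGC, the right part of the REST site, and for TGACGTCA, the site of CREB. Windows of 30 bases around the matches to TTCAGCACC and TGANTCA are shown to let the members that hold them be compared, with the motif in capitals.
CACNG3, chr1:186632346-186632375, plus strand: aagctgtcccTTCAGCACCacggacctcca
CACNG3, chr1:186632418-186632447, plus strand: gagctgtccgTTCAGCACCacggacctcag
KCNH6, chr10:91449435-91449464, plus strand: cttggcttatTTCAGCACCacgccgcggac
KCNJ1, chr8:39037981-39038010, plus strand: ctgcatatagaTGAGTCAggagccagtcta
KCNJ16, chr10:96517108-96517137, plus strand: catcaaaatgtTGAATCAatactcgatgtc
TTCAGCACC was in the windows of 2 of the 37 members (5.41%) and in 0.404% of those of 27457 genes, and CACNG3 held it at 2 places. The 2 genes differed in opposite directions, with log2 ratios of −0.57 for CACNG3 and 1.10 for KCNH6. TGANTCA was in the windows of 2 members (5.41%), KCNJ1 and KCNJ16, and in 8.04% of all, and both members were at least 2-fold lower. The middle base was G in KCNJ1 and A in KCNJ16, so only the match in KCNJ1 has the usual letters of the AP-1 site. Of the 9 members at least 2-fold lower with a window, none held TTCAGCACC and 2 held TGANTCA. The right part of the REST site was in the windows of 5 members (13.5%), CACNG3, KCNA2, KCND3, KCNE5 and KCNH6, and in 7.23% of all. In CACNG3 the right parts were on the other strand, at −214 and −142 from the start, ahead of the left parts at −206 and −134. In KCNH6 the left part was at −206 and the right part at −190, both on the gene strand. The CREB site was in none of the members and in 2.0% of all. These matches are letters in a window and were not tested as sites.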

How the data were processed

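The authors made stranded total RNA libraries from the supernatant after ribosomal depletion, downsampled the reads to the smallest library and aligned them to rn6 with STAR 2.5.4b (per the submitters' processing notes). The authors' deposited FPKM values, with upper quartile normalization, are 1 estimate per group from Cuffdiff 1.3.0. Depth per library is not given by the table, so the precision of a value is unknown, and no value lies below 1. The authors' p-values, q-values, fold changes and significance calls in the same table were not used. All 12771 entries were used, each value column being assigned to its group by name (0 measurement columns were left without a group), and for the 13 symbols listed 2 times, none of them a member, the entry with the larger mean was kept, which left 12758 genes. The log2 ratio, the percentile among all genes, counts past 2-fold and medians over lists were computed with Python 3.11.15, numpy 2.4.6 and pandas 2.3.3, and the counts were tested on simulated data with 200 changed genes.

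The members, lists and motifs were chosen with earlier results of these data known. Named with values were the 3 most abundant members of each family, every member past 2-fold, the members of 6 channel lists, and of the partners those past 2-fold and the 3 most abundant. The other members, HCN2, HCN4, CNTNAP2, the marker genes and the ratios between pairs of members were chosen after their values were seen. RefSeq (GRCr8) gave names, neighbours and promoter sequence, and no coordinate of the rn6 values is printed. Alternatives were pseudocounts of 1 and 0.1, subtracting 1, centring and scaling, a mean of at least 5 FPKM, folds of 1.5 and 3, summed entries, list means and leaving out skeletal muscle channels. Leaving out members whose values have more than 6 significant digits was chosen after seeing the data. With no replicate spread, a median was taken as moved when it differed by more than 0.1 on the log2 scale, and a count when it differed by more than 1.5 times. Some items are not reported here singly and are not drawn, and the counts and medians over families and lists include them.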

Additional observations from a re-analysis of the deposited data

How the results depend on the processing

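The deposited table holds 1 value per group, so no library could be left out and depth limits cannot be given. No paired analysis was possible because the groups share no replicate number and the columns carry none. The median log2 ratio of the members stayed below 0 in 43 of 44 recomputations over the 4 sets (all members, sodium, calcium and potassium). Part of these could not have differed in sign, so the tally is no measure of robustness. A pseudocount or subtracting 1 cannot turn the sign of a single ratio, and summing entries leaves the members unchanged. Leaving out skeletal muscle channels removes no sodium or potassium member. The exception was the sodium set at a mean of at least 5 FPKM, 0.034, where 2 genes are left. The same filter gave −0.76 for all members and −0.83 for potassium, against −0.11 for all genes. Centring the median of all genes moves every ratio up by 0.12 and gave −0.25 for all members, −0.58 for sodium, −0.45 for calcium and −0.19 for potassium, and upper quartile scaling gave −0.27, −0.59, −0.46 and −0.21. Subtracting 1 gave −0.53 for all, −0.87 for sodium and −0.48 for potassium. A pseudocount of 1 gave −0.59 for sodium and −0.34 for calcium, and means in place of medians gave −0.36 and −0.43. Without the 44 members with values of more than 6 significant digits the medians were −0.80 for all, −0.92 for sodium (1 gene), −0.74 for calcium and −0.73 for potassium. The count at least 2-fold lower, 16, became 9 at a fold of 3 and 5 without those 44 members. The count at least 2-fold higher, 6, became 3 with a pseudocount of 1, 2 at a mean of at least 5 FPKM, 11 at a fold of 1.5, 3 at a fold of 3 and 0 without the 44 members. CACNA2D2 and KCNRG changed sign under a scaling, and SCN3B, KCNH6, KCNK12 and KCNS3 fell under 2-fold in at least 1 alternative. Of the other members given here, CACNB4, CACNG3, KCNA6, KCNN3 and SCN2B came to at least 2-fold lower in at least 1 alternative.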

Other observations

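The deposited values were not all written with the same number of digits. A value of more than 6 significant digits in at least 1 group was found for 44 of the 60 members (73.3%), for 11 of the 16 at least 2-fold lower and for all 6 at least 2-fold higher, against 58.6% of all genes. Over the whole table the genes with such values had a median log2 ratio of −0.22 and 15.4% of them were at least 2-fold lower, while the other genes had a median of 0.0067 and 7.36%. What the further digits stand for is not given in the sources used here, and their part in the differences was not tested.

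Neighbouring channel genes could be set side by side in 3 pairs where both were listed. SCN2B and SCN4B, next to each other in GRCr8, had log2 ratios of −0.92 and −0.47, KCNA1 and KCNA6 had −0.48 and −0.90, and CACNG1 and CACNG4 had −1.79 and −0.74.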
